A study of Homo sapiens with 18 samples.

Results

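The 9 genes described here are HOXA5, HOXA6, HOXA7, HOXA9, HOXB5, HOXB6, HOXB7, HOXB8 and HOXB9, the trunk genes of the HOXA and HOXB clusters, paralogue groups 5 to 9. They were chosen by name and position in the clusters, and all 9 were among the 37550 rows of the deposited expression table. The study measured poly-A RNA in 18 libraries of the wild-type H1 line, an established human pluripotent stem cell line, in 9 groups of 2 biological replicates. The groups followed 2 origins of neural ectoderm into 3 media, to compare what anterior and posterior neural ectoderm become. Levels are given in TPM, a unit that scales each library to the same total and each gene to its transcript length, so that levels can be set side by side between genes.

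Undifferentiated cells at day 0 are called hPSC. All other cells first spent day 1 in a definitive ectoderm medium with A8301 at 1 µM, trametinib at 250 nM, C59 at 1 µM and LDN193189 at 100 nM, which inhibit TGF-beta receptors, MEK, WNT secretion and BMP receptors. On day 2, anterior neural ectoderm (aNE) received A8301 at 1 µM, LDN193189 at 100 nM and C59 at 1 µM. Posterior neural ectoderm (pNE) received A8301 and LDN193189 at those doses together with TTNPB at 50 nM, which activates retinoic acid receptors, the growth factor FGF2 at 20 ng/mL, and XAV939 at 1 µM, which inhibits tankyrase and so dampens WNT signalling. Both day-2 media also held thiazovivin for survival after replating. Both origins were then kept until day 4 in 1 of 3 media, called forebrain (groups aNE_T and pNE_T), midbrain (aNE_M and pNE_M) and hindbrain (aNE_H and pNE_H). On day 3 the forebrain medium held XAV939 at 1 µM, LDN193189 at 100 nM and FGF2 at 20 ng/mL. What the midbrain and hindbrain media contained was not used here, and they are named only by their labels. Plating density was 37500 cells per cm2 for collection at day 2. For day 4 it was 75000 cells per cm2 in aNE and 150000 cells per cm2 in pNE, so origin and plating density cannot be told apart at day 4. Density also differed between day 2 and day 4 in both origins, so changes between these days cannot be told apart from it either. All groups came from 1 cell line, and each library is a bulk culture, in which fewer expressing cells and less RNA per cell cannot be told apart.

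HOX genes code for homeodomain transcription factors that give cells their position along the head-to-tail axis. In each cluster, genes at the 3′ end are expressed early and toward the head, and genes toward the 5′ end later and toward the tail, an order called collinearity. The first groups of the clusters pattern the hindbrain, and the groups between them and the 5′ end pattern the spinal cord and the trunk. Retinoic acid acts on the 3′ genes through its receptors, while WNT and FGF signalling act on trunk groups in part through the caudal-type factors CDX1, CDX2 and CDX4.

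HOXA5 to HOXA9 lie on the minus strand of chromosome 7 in the RefSeq annotation of GRCh38.p14, between HOXA4 and HOXA10: HOXA5 at chr7:27141052-27143681, HOXA6 at chr7:27145396-27147774, HOXA7 at chr7:27153716-27156675 and HOXA9 at chr7:27162438-27165537. HOXB5 to HOXB9 lie on the minus strand of chromosome 17, beyond HOXB4: HOXB5 at chr17:48591257-48593779, HOXB6 at chr17:48595751-48604986, HOXB7 at chr17:48607232-48611017, HOXB8 at chr17:48612346-48615292 and HOXB9 at chr17:48621156-48626358. The next HOX gene in that direction, HOXB13, starts 98404 bases beyond HOXB9.

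The members share the DNA for the recognition helix, the part of the homeodomain that lies in the major groove of DNA. The 33 bases of coding sequence below were found in 1 GENCODE v29 transcript of each gene and are shown because they are what near-identical paralogues could confuse in read assignment. Capitals mark the 10 bases that differ in at least 1 member, and 23 bases were the same in all 9.
HOXA5: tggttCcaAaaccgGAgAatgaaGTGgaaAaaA
HOXA6: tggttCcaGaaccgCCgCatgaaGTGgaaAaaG
HOXA7: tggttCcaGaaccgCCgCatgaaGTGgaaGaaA
HOXA9: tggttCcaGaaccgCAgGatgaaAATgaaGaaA
HOXB5: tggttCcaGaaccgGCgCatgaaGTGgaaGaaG
HOXB6: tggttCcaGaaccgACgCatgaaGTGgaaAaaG
HOXB7: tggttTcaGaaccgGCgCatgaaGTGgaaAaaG
HOXB8: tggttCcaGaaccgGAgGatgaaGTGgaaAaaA
HOXB9: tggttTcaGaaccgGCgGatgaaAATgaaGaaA

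The closest pair over this stretch was HOXA6 and HOXB6, members of the same group, with 32 of 33 bases identical, and the most distant was HOXA9 and HOXB7, with 24. Over whole transcripts the members were well separated from each other: of a gene's 31-base words, 0% to 1.62% occurred in another member. Sharing with overlapping genes of the clusters was larger. HOXA7 shared 62.2% and HOXA6 35% of their words with the antisense gene HOXA-AS3, and HOXA9 shared 24.3% with any other gene. HOXB6 shared 28.9%, of which 15.4% was with HOXB3 and 12.9% with HOXB-AS3. The other 5 members shared 0.358% (HOXA5) to 5.43% (HOXB7). The values of HOXA6, HOXA7, HOXA9 and HOXB6 are uncertain to the extent of this sharing, and use of strand in the quantification is not given in the sources used here. HOXB6 and HOXB3 lie on the same strand, so use of strand could not separate the words they share. The same holds for the 12.3% that HOXA9 shared with AC004080.3.

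The trunk members were high in 1 group, posterior cells in the midbrain medium, and HOXA5 and HOXB5 were also above background in posterior cells in the other media. Summed over the 9 members, the level was 424 and 358 TPM in the pNE_M libraries, 19.9 and 18.6 TPM in pNE_H, and 7.33 and 11.9 TPM in pNE_T. It was 0.400 and 0.425 TPM in pNE at day 2 and at most 0.750 TPM in any library of hPSC or of the 4 aNE groups. The pNE_M mean was 20.3 times the pNE_H mean. Of the members, 8 reached at least 1 TPM in each pNE_M library, 2 did so in each pNE_T and pNE_H library, and none did in the other 12 libraries.

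**Figure D1:**
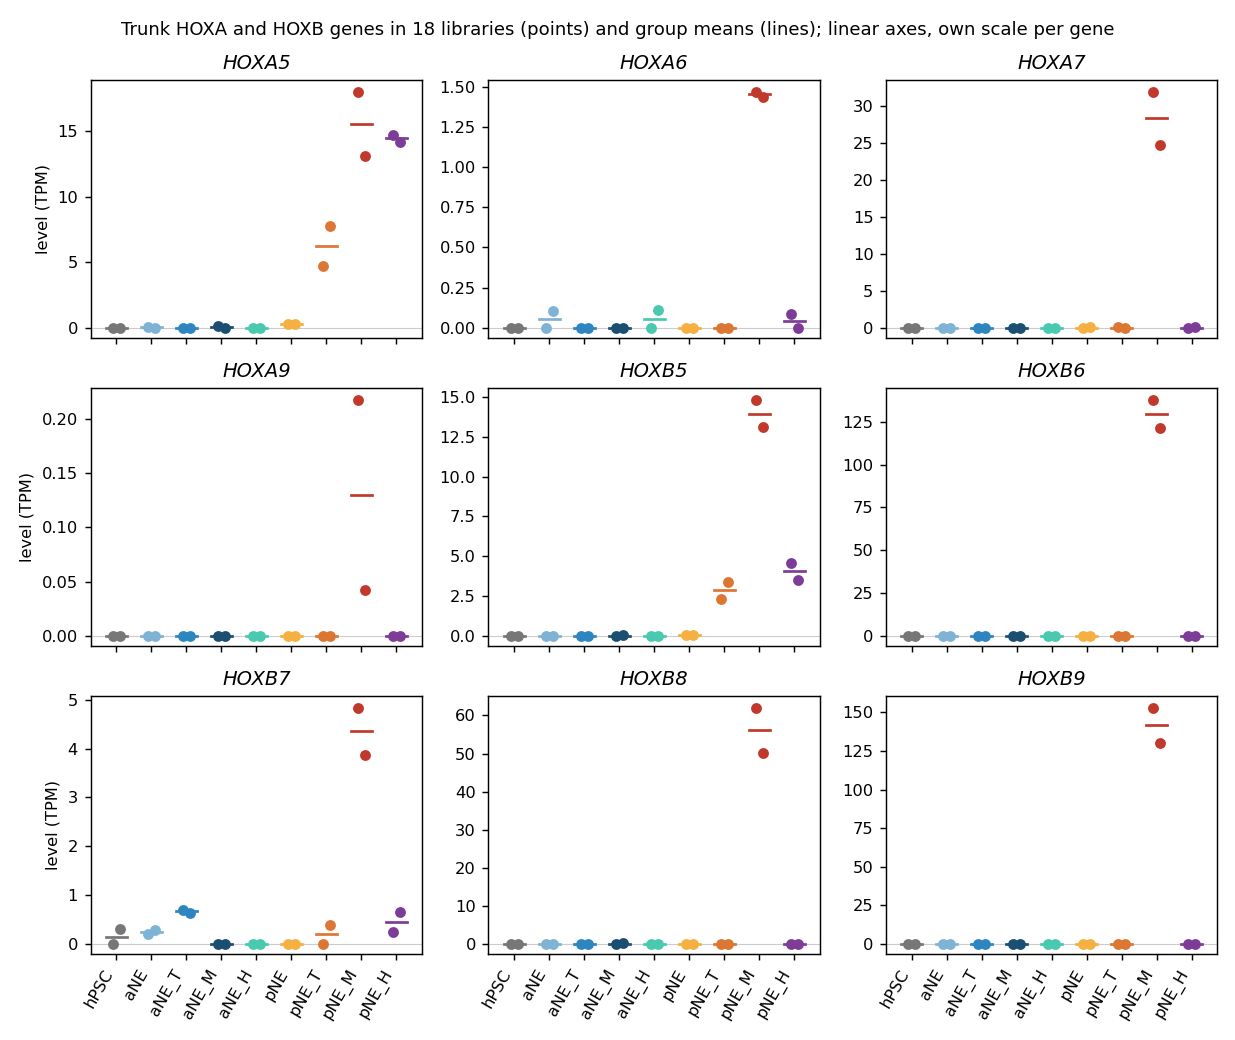
Level of each of the 9 members in TPM (linear axis from 0, a separate scale per gene) in the 9 groups. Each point is 1 library and each line the mean of the 2 libraries of a group. HOXA5 and HOXB5 stood above 0 in pNE_T, pNE_M and pNE_H, whereas the other members were near 0 outside pNE_M.

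Over the 17033 tested genes, which are not independent of each other, r was 0.982 to 0.987 between the libraries of a group and at most 0.968 between groups, and no library was a copy of another. The depth of the libraries is unknown, since TPM does not keep it. Of the members, 8 entered the tests, which needed at least 1 TPM in at least 2 libraries. HOXA5 and HOXB5 met this in 3 groups, while HOXA6, HOXA7, HOXB6, HOXB7, HOXB8 and HOXB9 met it through the 2 pNE_M libraries alone and so had to be higher there than elsewhere. For these 6 genes, differences between pNE_M and another group are given as descriptions, with no p, and counts that include them are not read against the share of all genes called. HOXA9 did not meet it and has no test in the main analysis. A gene is called changed when its adjusted p, from limma with Benjamini-Hochberg adjustment over the 17033 genes, is under 0.05 and its difference is at least 1 in log2(TPM + 1). The 6 genes admitted through pNE_M stayed under 1 TPM in every other library. They could therefore not reach that size between 2 groups other than pNE_M. The comparisons share groups: pNE_M was set against aNE_M, pNE, pNE_T and pNE_H, and pNE against its 3 later groups, so their results are not independent.

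HOXB9, HOXB6 and HOXB8 reached the highest levels among the members. HOXB9, the most 5′ of the HOXB trunk genes, was at 153 and 130.4 TPM in pNE_M (142 ± 16, SD, n = 2). In the other 16 libraries HOXB9 was at most 0.297 TPM, in pNE_T replicate 2. That both pNE_M libraries stood above all others follows from the filter, for HOXB9 as for HOXB6 and HOXB8. HOXB6, which like its neighbours is a marker of trunk identity, was at 138 and 121 TPM in pNE_M (129.6 ± 12, SD, n = 2) and at most 0.113 TPM elsewhere. HOXB8, known from work on the spinal cord and on blood progenitors, was at 62.0 and 50.3 TPM in pNE_M (56.1 ± 8.3, SD, n = 2) and at most 0.175 TPM elsewhere. HOXB9 and HOXB6 overlapped in pNE_M, and both pNE_M libraries were lower for HOXB8 than for either.

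HOXB7 did not follow its neighbours in level. Although it lies between HOXB6 and HOXB8, it was at 4.83 and 3.87 TPM in pNE_M (4.35 ± 0.68, SD, n = 2). It was at 0.696 and 0.643 TPM in aNE_T, 0.237 and 0.651 TPM in pNE_H, and 0 and 0.394 TPM in pNE_T. HOXB7 thus had the highest level outside pNE_M among the 6 members that reached 1 TPM only there, a condition under which both pNE_M libraries must stand above all others. HOXB5, the most 3′ of the HOXB members, was at 14.8 and 13.1 TPM in pNE_M (14.0 ± 1.2, SD, n = 2). It was at 2.31 and 3.41 TPM in pNE_T, 4.60 and 3.49 TPM in pNE_H, and 0.0312 and 0.0488 TPM in pNE. HOXB5 was listed at 0 in all libraries of hPSC and aNE origin but aNE_M replicate 2, at 0.0351 TPM. Its 3 posterior day-4 groups did not overlap with the other groups, and pNE_M did not overlap with the other 2, whereas the lowest pNE_H library was close to the highest pNE_T library.

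HOXA7 led the HOXA members. It was at 32.0 and 24.8 TPM in pNE_M (28.4 ± 5.1, SD, n = 2), at 0 or at most 0.0460 TPM in the other posterior libraries, and listed at 0 in all 10 libraries of hPSC and aNE origin.  HOXA6, its 3′ neighbour, was at 1.47 and 1.44 TPM in pNE_M (1.45 ± 0.024, SD, n = 2) and at most 0.113 TPM elsewhere. HOXA9, known for its part in axial patterning and in leukaemia, was at 0.217 and 0.0418 TPM in pNE_M and listed at 0 in the other 16 libraries. The levels of HOXA9 in pNE_M were thus lower than those of HOXB9, its group 9 counterpart, in the same libraries. When genes with low values were kept in the fit, the difference of HOXA9 between pNE_M and pNE was 0.17 in log2(TPM + 1). It was the same against aNE_M, pNE_T and pNE_H, under the size needed for a call. Since HOXA9 was above 0 in pNE_M alone, its direction was fixed and no p is given.

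HOXA5, a group 5 gene known for the cervical cord and the lung, showed the broadest pattern. It was at 4.73 and 7.74 TPM in pNE_T (6.24 ± 2.1, SD, n = 2), 18.04 and 13.1 TPM in pNE_M (15.6 ± 3.5, SD, n = 2) and 14.7 and 14.2 TPM in pNE_H (14.5 ± 0.37, SD, n = 2). It was at 0.248 and 0.276 TPM in pNE and at most 0.0970 TPM in the 10 libraries of hPSC and aNE origin. The pNE_H libraries lay between the 2 pNE_M libraries, and pNE_T was below both groups. Within pNE_M the order of levels was therefore HOXB9 and HOXB6 together, then HOXB8, HOXA7, HOXA5 and HOXB5 together, HOXB7, HOXA6 and HOXA9, where "together" means that the replicates overlapped.

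**Figure D2:**
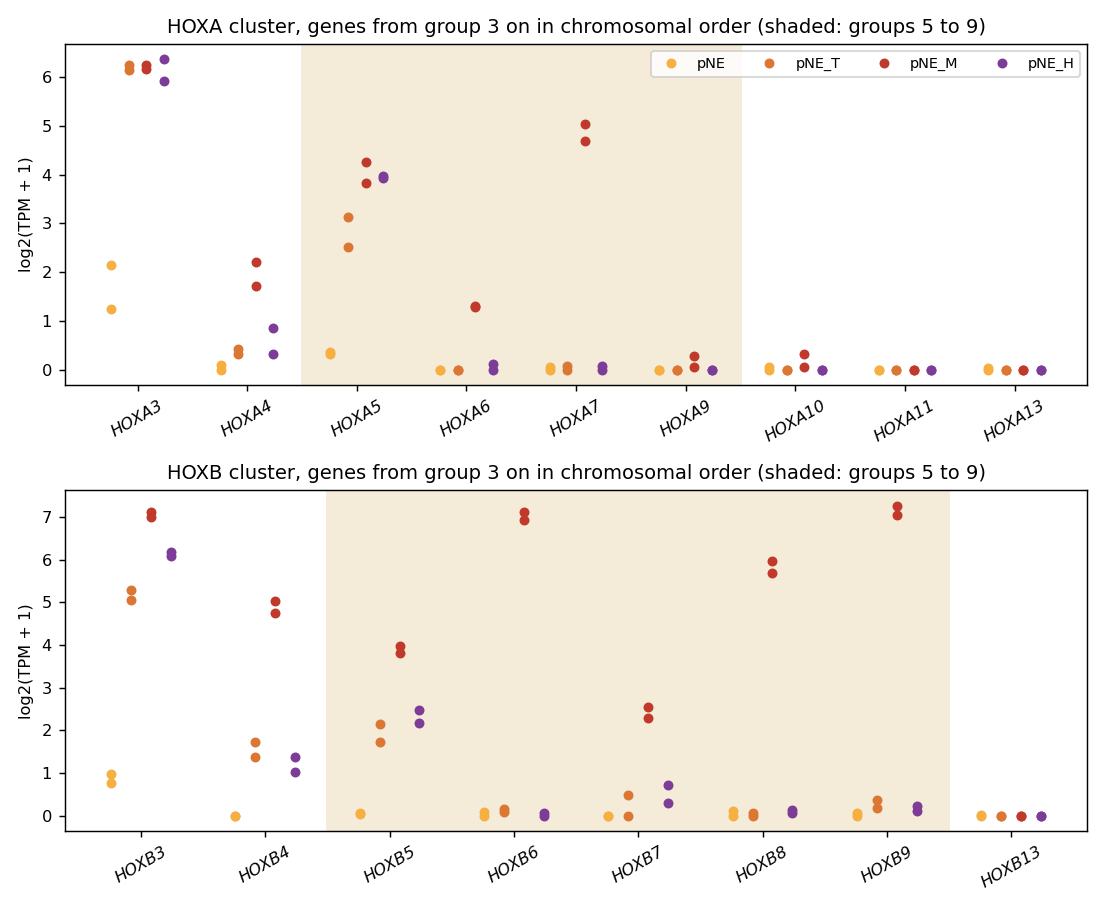
Level of each HOXA gene (upper panel) and HOXB gene (lower panel) from group 3 on in log2(TPM + 1), in the order of the cluster from the 3′ to the 5′ end, with 1 point per library of pNE, pNE_T, pNE_M and pNE_H and shading over groups 5 to 9. In pNE_M the HOXB genes were high through HOXB9 with a dip at HOXB7, and the HOXA genes through HOXA7 with dips at HOXA4 and HOXA6, whereas pNE_T and pNE_H were near 0 beyond group 5.

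The share of each cluster turned over between media. HOXA genes made up 12.2% and 10.98% of the summed level of the members in pNE_M, but 65.1% and 64.8% in pNE_T and 74.6% and 76.6% in pNE_H. The group 5 genes HOXA5 and HOXB5 together made up 7.75% and 7.31% in pNE_M, 96.0% and 93.3% in pNE_T, and 97.3% and 95.1% in pNE_H. The forebrain and hindbrain media thus gave nearly all of the members' RNA as group 5, whereas the midbrain medium gave most of it as groups 6 to 9 of HOXB. These shares are ratios within a library and carry no test.

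At day 2, none of the 8 tested members was called in pNE against aNE. Those other than HOXA5 and HOXB5 could not be called at this stage, since they stayed under 1 TPM in every library outside pNE_M. HOXA5 and HOXB5 were not called, beside 3.85% of all tested genes called in either direction. HOXA5 had the largest mean of the members in pNE, and its difference from aNE was 0.31 ± 0.21 (SE) in log2(TPM + 1), with an adjusted p of 0.391. With a pseudocount of 0.1 in place of 1, HOXA5 was called higher in pNE than in aNE (1.64, adjusted p = 0.0309) and than in hPSC (1.86, adjusted p = 0.00586). In the main analysis HOXA5 and HOXB5 were not called in pNE against hPSC either, with 12.9% of genes called, nor in aNE against hPSC, with 13.5%. The 3′ genes of the same clusters behaved otherwise at this stage. HOXB1, a group 1 gene that responds directly to retinoic acid, was at 15.2 and 19.5 TPM in pNE and listed at 0 in both aNE libraries. Of the 12 other protein-coding genes of the HOXA and HOXB clusters, 8 were tested, and 5 of these rose in pNE against aNE, among them HOXA2, HOXA3, HOXB1 and HOXB2, with a median difference of 1.75 against -0.01 over all tested genes.

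Between day 2 and day 4, posterior cells gained HOXA5 and HOXB5 in all 3 media. Plating density also changed between these days and cannot be told apart from time. In pNE_T and pNE_H against pNE, HOXA5 and HOXB5 were the only members that could be called. In the forebrain medium, these 2 of the 8 tested members rose in pNE_T against pNE, where 4.68% of genes were called higher: HOXA5 by 2.49 ± 0.21 (SE) in log2(TPM + 1), with an adjusted p of 1.16e-06, and HOXB5 by 1.88 ± 0.18, with an adjusted p of 5.2e-06. In the hindbrain medium, the same 2 rose in pNE_H against pNE, beside 4.47% of genes called higher, HOXA5 by 3.61 (adjusted p = 2.71e-08) and HOXB5 by 2.27 (adjusted p = 6.55e-07). In the midbrain medium HOXB5 rose by 3.84 (adjusted p = 4.39e-09) and HOXA5 by 3.70 (adjusted p = 1.9e-08) in pNE_M against pNE. All 8 tested members were called there, beside 4.87% of genes called higher, a count that the filter on low values fixes for the other 6. The difference was 7.12 for HOXB9, 6.99 for HOXB6, 5.77 for HOXB8 and 4.83 for HOXA7. HOXA6 and HOXB7 were listed at 0 in both pNE libraries and are given by their levels above.

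No gain of the members was called in anterior cells in any of the media. None of the 8 tested members was called in aNE_T, aNE_M or aNE_H against aNE. For 6 of them this was fixed in advance, since they stayed under 1 TPM in every library outside pNE_M. HOXA5 and HOXB5 were open to a call and were not called, beside 9.03%, 12% and 10.1% of genes called in either direction. The highest value of any member in the 6 libraries of aNE_T, aNE_M and aNE_H was 0.696 TPM, for HOXB7 in aNE_T replicate 1. Between origins in the same medium, HOXA5 and HOXB5 were higher in pNE_T than in aNE_T (adjusted p of 3.72e-07 and 4.65e-06, beside 3.79% of genes called higher) and in pNE_H than in aNE_H (adjusted p of 2.02e-08 and 9.36e-07, beside 3.92%). Both genes were listed at 0 in the aNE_T and aNE_H libraries, so no fold is given. In the midbrain medium HOXA5 was higher in pNE_M than in aNE_M by 3.97 (adjusted p = 2.19e-08) and HOXB5 by 3.88 (adjusted p = 9.56e-09). All 8 tested members were called there, beside 3.19% of genes called higher, of which 6 by way of the filter. HOXB9 differed by 6.97 and HOXB8 by 5.69, and HOXA6, HOXA7, HOXB6 and HOXB7 were listed at 0 in both aNE_M libraries. Of HOXB7, the difference between pNE_T and aNE_T was -0.50, with an adjusted p of 0.144, so that the lower forebrain values in posterior cells were not told apart from the replicate spread.

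Whether the change from day 2 to day 4 itself differed between origins was tested as an interaction, the change in pNE-derived cells minus that in aNE-derived cells. It passed for HOXA5 and HOXB5 in the forebrain medium (2.51 and 1.88 in log2(TPM + 1)) and in the hindbrain medium (3.64 and 2.27), where 3.17% and 3.91% of all genes were called higher. In the midbrain medium it passed for HOXA5 (3.66, adjusted p = 2.18e-06) and HOXB5 (3.82, adjusted p = 5.13e-07), beside 3.33% of genes called higher. The other 6 tested members, which the filter admits through pNE_M alone, had values from 1.36 for HOXA6 to 7.06 for HOXB6.

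Among posterior cells at day 4, HOXB5 was higher in pNE_M than in pNE_T by 1.97 in log2(TPM + 1) (adjusted p = 3.38e-06). All 8 tested members were called higher there, beside 3.31% of all genes, and for 6 of them the filter fixes this. Of these 6, HOXB6 differed by 6.91, HOXB9 by 6.87, HOXB8 by 5.80, HOXA7 by 4.83 and HOXB7 by 2.17 ± 0.22 (SE), and HOXA6 was listed at 0 in pNE_T. HOXA5 differed by 1.21 ± 0.21 (SE; adjusted p = 0.000608), and it was 0.91 without pNE_T replicate 1 and 0.995 without pNE_M replicate 1, both under the size for a call. When pNE_M and pNE_T were fitted alone its adjusted p was 0.0893.

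Between the hindbrain and the midbrain medium, HOXB5 was lower in pNE_H than in pNE_M, with a difference of -1.57 (adjusted p = 4.32e-05). In all, 7 of the 8 tested members were called lower in pNE_H, beside 2.99% of all genes, and for the 6 other than HOXB5 the filter fixes this. Of these, HOXB6 differed by -7.00, HOXB9 by -6.98, HOXB8 by -5.73, HOXA7 by -4.83, HOXB7 by -1.90 and HOXA6 by -1.24. HOXA5 was not called, with a difference of -0.08 ± 0.21 (SE) and an adjusted p of 0.85. Against pNE_T, 1 member was called higher in pNE_H, beside 1.65% of genes: HOXA5, by 1.13 (adjusted p = 0.00185). This call was lost without pNE_T replicate 1, where the difference was 0.82 (adjusted p = 0.0236), and when pNE_H and pNE_T were fitted alone (adjusted p = 0.129). HOXB5 differed by 0.39 between pNE_H and pNE_T, with an adjusted p of 0.173.

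Several genes 3′ of the members were also higher in the midbrain medium than in the forebrain medium. Of the 8 tested other HOXA and HOXB genes, HOXA4, HOXB1, HOXB3 and HOXB4 were called higher in pNE_M than in pNE_T, beside 3.31% of all genes. In the same comparison 1 of the 8 was called lower (median 0.83 against -0.03 over all tested genes). HOXB4, the 3′ neighbour of HOXB5, was at 31.8 and 26.1 TPM in pNE_M, 2.30 and 1.59 TPM in pNE_T and 1.58 and 1.02 TPM in pNE_H. HOXA4 was at 3.64 and 2.27 TPM in pNE_M and at most 0.799 TPM in pNE_T and pNE_H. The filter admits HOXA4 through pNE_M alone and so fixes its direction. HOXB3 was at 139 and 128 TPM in pNE_M, 72.1 and 67.1 TPM in pNE_H and 32.2 and 38.2 TPM in pNE_T, an order without overlap between the groups. At the 5′ end, HOXA10 was at 0.243 and 0.0329 TPM in pNE_M, HOXA11 was listed at 0 in all 18 libraries, and HOXA13 and HOXB13 were at most 0.0179 TPM. The high levels thus ended at HOXA7 in the HOXA cluster and at HOXB9 in the HOXB cluster.

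In the HOXC and HOXD clusters no gene of groups 8 to 13 passed the filter. Of their 18 genes 6 were tested, and HOXC4, HOXC5, HOXC6 and HOXD1 were called higher in pNE_M than in pNE_T (median 1.31 against -0.03). Of all genes, 3.31% were called higher there. HOXC5 and HOXC6 were listed at 0 outside pNE_M, so the filter fixes the direction for them. HOXC4 was at 35.5 and 30.6 TPM in pNE_M and at most 1.38 TPM elsewhere, in pNE_T replicate 1. It too passed the filter only with the pNE_M libraries. HOXC5 was at 3.68 and 2.81 TPM, HOXC6 at 1.60 and 1.03 TPM and HOXC8 at 1.09 and 0.697 TPM in pNE_M. HOXC9, the group 9 gene of that cluster, was listed at 0 in all 18 libraries, where HOXB9 reached its 153 and 130.4 TPM in pNE_M.

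The caudal-type factors were high in the same libraries. CDX1 was at 127 and 98.6 TPM in pNE_M and at most 0.889 TPM elsewhere. CDX2 was at 247 and 252 TPM in pNE_M, 3.34 and 4.39 TPM in pNE_H, 0.274 and 1.12 TPM in pNE_T and 1.76 and 1.67 TPM in aNE_M. CDX4 was at 0.414 and 0.603 TPM in pNE_M, lower than its 2.43 and 2.75 TPM in hPSC. CDX2, but not CDX4, was called higher in pNE_M than in aNE_M, by 6.53 ± 0.25 (SE; adjusted p = 1.38e-09). CDX1 differed by 5.99 and is given with no p. It reached 1 TPM in the pNE_M libraries alone, so the filter on low values fixed its direction. CDX4 differed by 0.59 (adjusted p = 0.028).

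Genes that respond to WNT signalling rose in the midbrain medium in both origins, whereas rises of the members were called in posterior cells. Of the 13 genes of this list, 11 rose in aNE_M against aNE (median 3.91 against -0.02 over all tested genes) and 11 in pNE_M against pNE (median 3.50 against -0.06). Their summed level was 2208 and 2090 TPM in aNE_M and 1645 and 1490 TPM in pNE_M, so the anterior libraries were the higher, while the summed level of the members was at most 0.750 TPM in any anterior library. It was 181 and 167 TPM in pNE_H, 205 and 155 TPM in aNE_H and at most 70.6 TPM in the other 10 libraries. SP5, a direct target of WNT signalling, was at 706 and 473 TPM in aNE_M and 756 and 625 TPM in pNE_M, and AXIN2, a feedback inhibitor of the pathway, at 315 and 312 TPM and 272 and 268 TPM. The interaction in the midbrain medium passed for 3 WNT response genes higher in posterior cells (RNF43, TNFRSF19 and LGR5) and 2 lower (DKK1 and APCDD1). Genes that respond to retinoic acid, a list that includes HOXB1, differed by origin already at day 2: 10 of 17 rose in pNE against aNE (median 1.78 against -0.01). Their summed level was 8614 and 9306 TPM in pNE_M, 8229 and 7670 TPM in pNE_T and 7365 and 7415 TPM in pNE_H. In pNE_M against pNE_T, 4 were called higher (RARG, STRA6, RDH10 and HOXB1), beside 3.31% of all genes. RARB was among the 5 called lower (median of the list -0.26 against -0.03). This receptor gene, itself a target, was at 77.8 and 85.2 TPM in pNE_T, 56.9 and 65.5 TPM in pNE_H and 4.48 and 5.16 TPM in pNE_M.

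**Figure D3:**
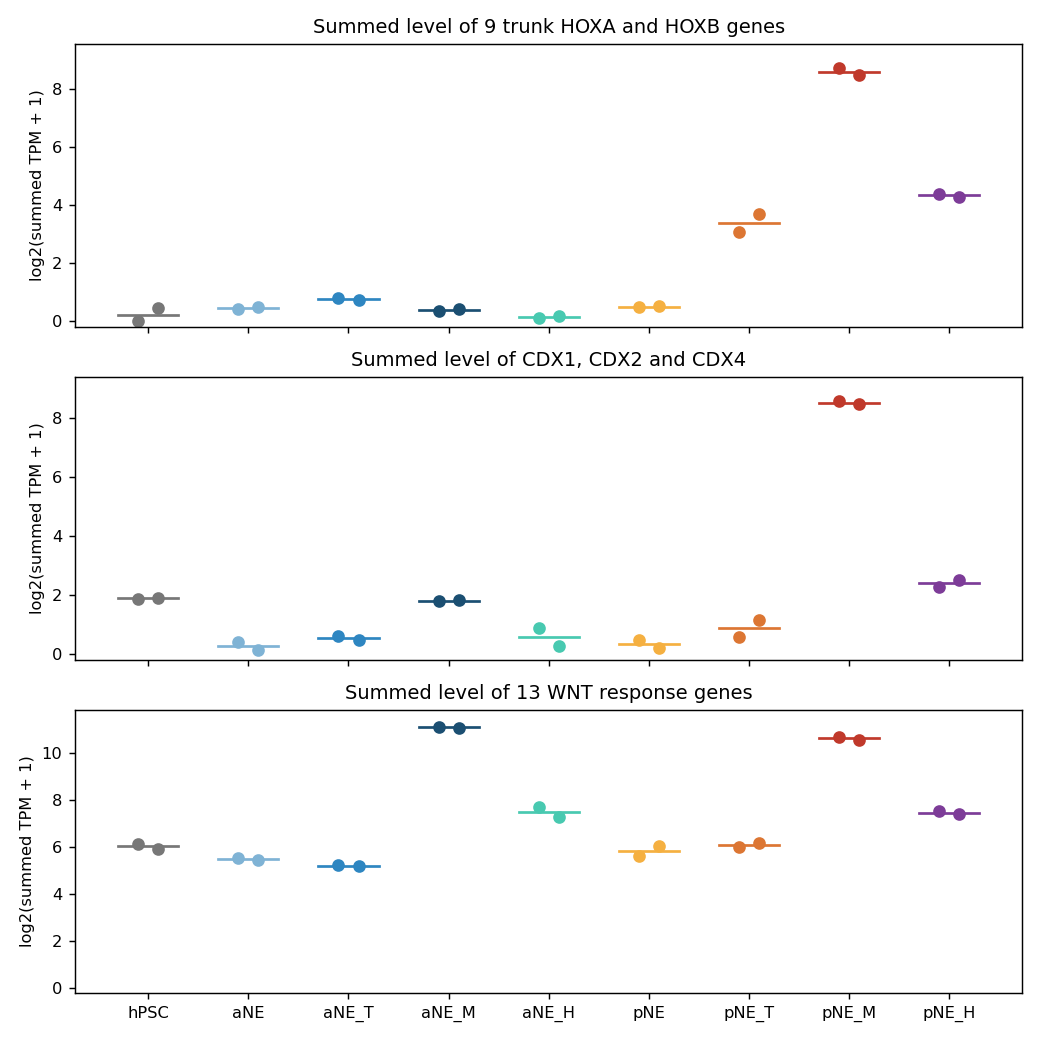
Summed level of the 9 members, of the CDX genes and of the WNT response genes in log2(summed TPM + 1), for each of the 18 libraries (points) and as the group mean (lines). The WNT response genes were high in aNE_M and pNE_M, whereas the members and the CDX genes had their highest sums in pNE_M alone.

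Markers of other cell types were read beside these results. Of 17 mesoderm genes, 7 were at 1 TPM or more in each pNE_T, pNE_M and pNE_H library, with sums of 37.9 to 41.9 TPM, 52.0 to 52.8 TPM and 61.3 to 68.3 TPM, and of 31.2 to 40.0 TPM in aNE_M. The paraxial mesoderm regulators TBX6 and MSGN1 were at most 0.414 TPM in pNE_M. TBXT, which marks early mesoderm and neuromesodermal progenitors, was at 1.21 and 1.94 TPM in pNE_M, with 2.72 and 4.01 TPM for aNE_M, and no more than 0.0397 TPM in pNE_T and pNE_H. Of the mesoderm genes 10 were tested, and 5 were called higher in pNE_M than in pNE (TBXT, MEOX1, FOXC1, HAND1 and TWIST1). TCF15 and KDR were called lower. The median was 0.68 against -0.06 over all tested genes, of which 4.87% were called higher. Against pNE_T, TBXT, HAND1 and TWIST1 were called higher in pNE_M, beside 3.31% of all genes (median -0.18 against -0.03). Of 11 neural crest genes, 8 and 10 were at 1 TPM or more in the pNE_M libraries, with sums of 164 and 155 TPM against 195 and 213 TPM in aNE_M, 107 and 109 TPM in pNE_H and 46.2 and 48.3 TPM in pNE_T. FOXD3, an early neural crest factor, was at 20.2 and 11.6 TPM in pNE_M and at most 0.106 TPM in pNE_T and pNE_H. The 11 neural genes summed to 590 and 546 TPM in pNE_M, 582 and 562 TPM in pNE_H and 1349 and 1356 TPM in pNE_T. Of these 11, 5 were called lower in pNE_M than in pNE_T (SOX2, SOX3, PAX6, NES and SOX21) and none higher. SOX2 was at 127 and 103 TPM in pNE_M and 239 and 234 TPM in pNE_T. The sum of 8 surface ectoderm genes was highest in pNE_M, at 2069 and 2129 TPM, against 1709 and 1506 TPM in pNE_H, 1245 and 1369 TPM in pNE_T and 994 and 935 TPM in aNE_M. Among them KRT8 and KRT18, keratins of simple epithelia, were higher in pNE_M than in aNE_M and made up most of the sum, with KRT8 at 1002 and 986 TPM in pNE_M. TP63, which defines the surface ectoderm lineage, was at most 0.113 TPM in pNE_M, KRT5 was at 0.695 and 0.713 TPM there, and GATA3 and DLX5 were lower in pNE_M than in pNE_T.  The 7 endoderm genes summed to 37.0 and 33.2 TPM in pNE_M and 46.3 and 51.5 TPM in pNE_T. The part of these other markers in the levels of the members was not tested.

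Markers of caudal progenitors, the cells of the embryo's tail end that give rise to spinal cord, moved with both medium and origin, and SP5 and the CDX genes are among them. Of 21 genes 18 were tested, of which 8 were higher in pNE_M than in pNE_T (TBXT, NKX1-2, CDX1, CDX2, FGF17, HES7, SP5 and EVX1; median 0.60 against -0.03 over all tested genes). Between origins in the midbrain medium, 5 were higher in pNE_M (NKX1-2, CDX1, CDX2, WNT5A and CYP26A1) and 5 in aNE_M (FGF8, FGF17, SP8, EVX1 and FGF3), with a median of -0.05 against -0.04. For CDX1, which the filter admits through pNE_M alone, the direction was fixed in both comparisons. NKX1-2 was at 20.1 and 12.6 TPM in pNE_M and 6.97 and 6.55 TPM in aNE_M. Of 9 genes of HOX partner proteins, 2 rose in pNE_M against pNE (MEIS1 and PKNOX2; median -0.09 against -0.06) and 2 were higher in pNE_M than in aNE_M (MEIS1 and MEIS2; median -0.19 against -0.04). Against pNE_T none was higher in pNE_M and 4 were lower (MEIS1, MEIS3 and PBX3 among them; median -0.66 against -0.03). MEIS1 was at 2.78 and 3.26 TPM in pNE, 27.3 and 40.6 TPM in pNE_M, 76.7 and 76.2 TPM in pNE_T and 128 and 150.5 TPM in pNE_H.

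The genes most like the members were found by Pearson correlation with the mean log2(TPM + 1) of the 8 tested members over the 18 libraries, among 12446 genes with a group mean of at least 5 TPM. They were HOXC4 (r = 0.988), HOXB4 (0.981), CDX2 (0.976), URAD (0.976), MYOD1 (0.975), CDX1 (0.974), NEUROG2 (0.973), EXOC6B (0.963), UGT2B7 (0.957) and TPPP3 (0.955). These values largely express that a gene is high in the 2 pNE_M libraries: over the other 16 libraries r was 0.920 for HOXB4, 0.728 for HOXC4, 0.693 for CDX2, 0.223 for URAD and 0.205 for CDX1. URAD, the gene of an enzyme of uric acid breakdown, was at 72.6 and 63.1 TPM in pNE_M and at most 0.391 TPM elsewhere. It is the protein-coding neighbour of CDX2 on chromosome 13, with 8401 bases between them in GRCh38.p14. MYOD1, a regulator of skeletal muscle, was at 12.4 and 14.8 TPM in pNE_M and at most 0.635 TPM elsewhere, and NEUROG2, a proneural factor, at 24.8 and 14.2 TPM and at most 1.78 TPM elsewhere.

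The group 5 members resembled other genes than groups 6 to 9 did. HOXA5 was most like TSHZ1 (r = 0.994 over 18 libraries and 0.993 without pNE_M), HOXB3 (0.994 and 0.993) and CDH12 (0.991 and 0.991). TSHZ1, a zinc-finger factor of the teashirt family, was at 17.1 and 19.0 TPM in pNE_T, 46.4 and 46.2 TPM in pNE_M and 37.0 and 34.9 TPM in pNE_H. HOXB5 was most like SLC18A3, the vesicular acetylcholine transporter (r = 0.993 and 0.988), which was at 4.04 and 4.54 TPM in pNE_T, 13.8 and 12.7 TPM in pNE_M and 4.83 and 3.19 TPM in pNE_H. HOXA6, HOXA7, HOXB6, HOXB8 and HOXB9 all had URAD first (r from 0.991 to 0.998) and CDX1 second. Without pNE_M, r with URAD was from -0.204 (HOXA7) to 0.357 (HOXB8), and r with CDX1 from -0.207 (HOXB6) to 0.704 (HOXB8). For these 5 the likeness thus largely expresses high levels in pNE_M. HOXB7 was most like COL3A1, a fibrillar collagen (r = 0.961, and 0.660 without pNE_M), at 10.6 and 9.74 TPM in pNE_M. The libraries are shared by all of these values, so they are descriptions without a test.

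**Figure D4:**
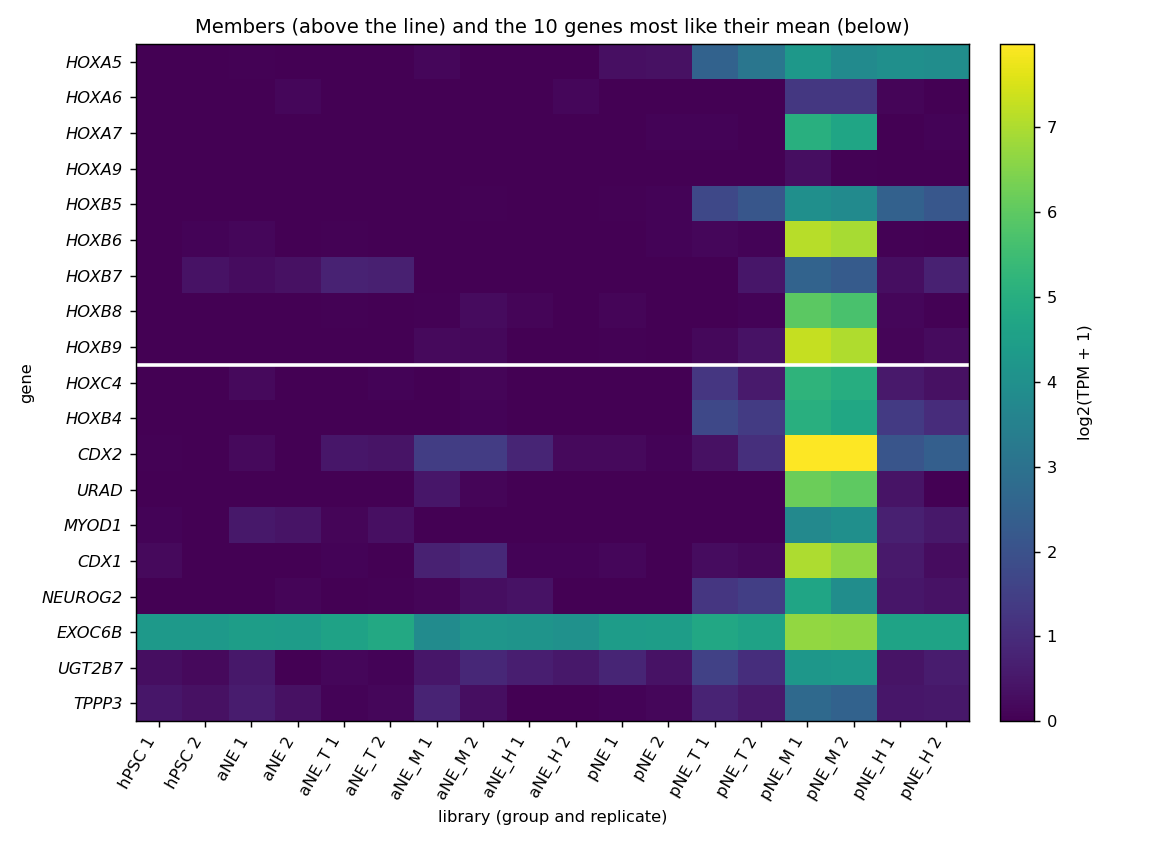
Heat map of log2(TPM + 1) in the 18 libraries (columns, by group and replicate) for the members (rows above the line) and the 10 genes most like their mean (rows below). The 2 pNE_M columns are the brightest columns in most rows, EXOC6B also shows levels between 13.4 and 27.0 TPM in the other libraries, and HOXB4 is also above background in pNE_T and pNE_H.

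The promoters of HOXA7 and HOXA9 are shown because HOXA7 was the highest and HOXA9 the lowest of the HOXA members in pNE_M (28.4 TPM against 0.130 TPM). Each runs from 250 bases before to 50 bases after the start site in RefSeq (GRCh38.p14, minus strand), and 3 of the 9 members had an entry. Capitals mark matches on either strand to the motifs searched: the CDX core TTTATG, the retinoid half-site AGGTCA, a HOX-PBX motif TGATTNAT and the TATA motif TATAAA.
HOXA7, chr7:27156626-27156925: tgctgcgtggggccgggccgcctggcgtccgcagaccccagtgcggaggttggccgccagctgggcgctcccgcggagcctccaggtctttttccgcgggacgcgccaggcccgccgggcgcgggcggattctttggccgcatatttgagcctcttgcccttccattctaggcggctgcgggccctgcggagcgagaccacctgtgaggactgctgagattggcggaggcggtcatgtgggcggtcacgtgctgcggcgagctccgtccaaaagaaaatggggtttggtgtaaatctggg
HOXA9, chr7:27165488-27165787: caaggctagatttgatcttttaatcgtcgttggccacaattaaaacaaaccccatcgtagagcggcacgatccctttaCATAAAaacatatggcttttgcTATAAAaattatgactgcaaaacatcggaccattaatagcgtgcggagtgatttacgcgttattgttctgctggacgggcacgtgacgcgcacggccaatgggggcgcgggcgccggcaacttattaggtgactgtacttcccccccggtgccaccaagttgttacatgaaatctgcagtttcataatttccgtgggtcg

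HOXA7 held none of the 4 motifs in this window, with a GC content of 68% and 31 CpG dinucleotides. HOXA9 held a CDX core on the reverse strand (read as CATAAA here), at position -172 from the start site, and a TATA motif at -150, with a GC content of 48% and 22 CpG dinucleotides. HOXA6, which also had an entry, held none, with 60.3% GC and 29 CpG. Over all 35116 promoters of this length the CDX core was in 10.6%, the retinoid half-site in 13.8%, the HOX-PBX motif in 2.82% and the TATA motif in 11.5%, and the medians were 58.7% GC and 14 CpG. The motifs were chosen after the levels had been seen, and a match is a description of letters only.

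The clusters also hold the genes of a microRNA family, miR-196, whose sites lie in several trunk HOX messages. MIR196B lies beyond HOXA9 at chr7:27169528-27169549, and MIR196A1 beyond HOXB9 at chr17:48632532-48632553 (mature sequences from RefSeq, GRCh38.p14). The mature sequences are shown with their seed, bases 2 to 8, in capitals, followed by a site in the 3′ UTR of each of 2 members with the match to the seed in capitals.
hsa-miR-196a-5p: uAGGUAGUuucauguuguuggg
hsa-miR-196b-5p: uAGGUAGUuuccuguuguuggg
HOXA7 site: tggcgcgtccaaaatACTACCTa
HOXB6 site: ctggaaggagcacatACTACCTa

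The 2 mature forms share the seed. The 7-base match ACTACCT occurred 4 times in the 3′ UTR of HOXA7, 2 times in that of HOXA9 and once each in HOXA5, HOXB6 and HOXB7, and not in HOXA6, HOXB5, HOXB8 or HOXB9. In all, 1326 of 18943 genes (7%) held the match in their 3′ UTR. Members with and without it were both among the highest in pNE_M (HOXB6 with, HOXB9 without), and microRNAs were not measured in these poly-A libraries.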

How the data were processed

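The authors deposited 1 table of TPM values per gene and library, and TPM was used as deposited. Per the submitters' processing notes, the tools named were bcl2fastq, FastQC, Trim Galore, kallisto and deepTools, with the genome build hg38; their versions, their settings, the annotation and the use of strand are not given in the sources used here. Per the labels' protocols, RNA was selected with poly-T beads and primed with random hexamers. TPM keeps no read number, so depth is unknown and no counting interval is given. Each of the 18 columns was matched to its library by name.

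The scale was log2(TPM + 1), and 17033 genes were tested, those that reached 1 TPM in 2 or more libraries; differences on this scale understate the change of low genes. limma 3.58.1 (R 4.3.3) fitted a mean for each group (9 residual degrees of freedom, variance trend) and gave 15 pairs of groups and 3 interactions. P-values are two-sided and adjusted by Benjamini-Hochberg. The script was tested on simulated data. Named genes were the 9 members, the genes of the lists and the genes most like the members (the 10 highest correlations with their mean and the 3 highest with each member). Where a list is long, the genes given with values were chosen after their values were seen. The members and the gene lists were chosen with earlier results of these data known. Alternatives changed the pseudocount (0.1), the filter (none, or 5 TPM), the scaling (median ratio, or quantiles), the fit (compared libraries only, no variance trend, or a replicate block) and the call (adjusted p alone), or left out each library in turn. Positions, promoters and microRNAs come from RefSeq (GRCh38.p14), and transcripts from GENCODE v29. None of the 20 noncoding RNA genes listed for the clusters was matched by symbol, and they were not analysed here. A few genes of the lists are counted but not reported here by name. The replicates are biological per the labels.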

Additional observations from a re-analysis of the deposited data

Results flagged for a closer look

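The change from day 2 to day 4 differed between origins, by the interaction term of limma, for each result below, in log2(TPM + 1) and always higher in posterior cells. In the forebrain medium the difference was 2.51 for HOXA5 (adjusted p = 5.94e-05) and 1.88 for HOXB5 (adjusted p = 0.000264). In the hindbrain medium it was 3.64 for HOXA5 (adjusted p = 2.18e-06) and 2.27 for HOXB5 (adjusted p = 4.95e-05). In the midbrain medium it was 7.06 for HOXB6, 6.94 for HOXB9, 5.63 for HOXB8 and 4.83 for HOXA7. In the same medium it was 3.82 for HOXB5 (adjusted p = 5.13e-07), 3.66 for HOXA5 (adjusted p = 2.18e-06), 2.72 for HOXB7 and 1.36 for HOXA6. The 6 genes given without a p reached 1 TPM in the 2 pNE_M libraries alone, so the filter on low values fixed their direction. Plating density changed with origin at day 4 and with day in both origins, and cannot be told apart from either.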

How the results depend on the processing

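No result for a member reversed under any alternative, and no scaling moved the median of all genes by more than 0.1 in log2. The counts of members called, in either direction, were the same as in the main analysis in all 18 comparisons with quantile normalization, median-ratio scaling, no filter, no variance trend and calls by adjusted p alone. With the 5 TPM filter, which HOXA6 and HOXB7 did not pass, the counts of 8 became 6 and the count of 7 in pNE_H against pNE_M became 5. With a pseudocount of 0.1, the count rose from 0 to 1 in pNE against hPSC (HOXA5, 1.86, adjusted p = 0.00586) and in pNE against aNE (HOXA5, 1.64, adjusted p = 0.0309), and fell from 1 to 0 in pNE_H against pNE_T (HOXA5, 1.24, adjusted p = 0.0794). That pseudocount gained 3 more calls: HOXB9 in pNE_T against aNE_T (1.62, adjusted p = 0.0461), and HOXB7 in pNE_H against pNE (2.33, adjusted p = 0.0393) and in the hindbrain interaction (4.07, adjusted p = 0.0305). A fit of only the libraries compared gave 0 in pNE_H against pNE_T and 7 in pNE_M against pNE_T, where HOXA5 then had an adjusted p of 0.0893. Leaving out 1 library at a time gave counts of 0 to 1 in pNE_H against pNE_T and of 7 to 8 in pNE_M against pNE_T, with the lone library assumed to vary like the other groups; all other counts stayed the same. The cause was not tested. Same-numbered replicates did not deviate together (r from -0.0896 to 0.0762 over 36 pairs of groups, none over 0.1), and with the replicate block 18 of 18 counts and 144 of 144 values of members kept their side of the threshold. Levels under 1 TPM, such as those of HOXA9, are limited by a depth that is unknown.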

Other observations

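Genes that respond to FGF and ERK signalling were also read beside the members. Their summed level was 989 and 1031 TPM in pNE_M, 800 and 849 TPM in pNE_T, 1129 and 1123 TPM in pNE_H and 1163 and 1127 TPM in aNE_H. The part of this signalling in the levels of the members was not tested. Of the 15 genes of that list, 11 were called higher and 1 lower (EGR1) in pNE than in aNE at day 2, beside 3.85% of all genes called in either direction. The median was 1.73 against -0.01 over all tested genes. At that stage HOXA5 and HOXB5, the only members open to a call there, were not called in the main analysis. HOXA5 was called with a pseudocount of 0.1 (1.64, adjusted p = 0.0309). In pNE_M against pNE_T, where the 8 tested members were higher, 2 genes of the list rose and 2 fell (median -0.10 against -0.03). Of all genes, 3.31% were called higher there. Of 10 hindbrain segmentation genes 9 were tested, and 1 was higher and 3 were lower in pNE_M than in pNE_T (median -0.36). GBX2, a marker of the anterior hindbrain, was at 5.22 and 6.44 TPM in pNE_M, 38.4 and 33.9 TPM in pNE_T and 33.1 and 24.8 TPM in pNE_H, so both pNE_M libraries were the lowest of the 6.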
